A study of Sus scrofa with 92 samples.

Results

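The proteasome is the barrel-shaped protease that degrades proteins tagged with ubiquitin. Rings of alpha and beta subunits form its 20S core, whose beta subunits carry the proteolytic sites. The 19S regulatory particle, made of ATPases that unfold substrates and of non-ATPase subunits that bind and deubiquitinate them, caps the core, and other activator caps open it without ubiquitin. Subunit genes are known to be transcribed together, in part by the transcription factor NRF1 (gene NFE2L1), which raises them when protein degradation is impaired. In liver the ubiquitin proteasome system removes damaged and short-lived proteins after ischemia and during the acute phase.

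Proteasome subunits were taken by symbol: PSMA1 to PSMA7 and PSMB1 to PSMB7 of the core, PSMC1 to PSMC6 and PSMD1 to PSMD14 of the regulatory particle, and the caps PSME1 to PSME4. Of these 38 symbols, 23 were paired with an identifier in the count table and 15 are not analysed here. PSMB1 and PSME1 were listed at 0 counts in every library. The other 21 subunits were measured among 13667 genes tested of 25322 identifiers, and the filter on low counts removed only the 2 subunits at 0. They comprised 3 alpha subunits, 1 beta subunit (PSMB7), 5 ATPases, 8 non-ATPases, 1 assembly chaperone (PSMD5) and 3 caps. Of the 3 constitutive catalytic subunits (PSMB5, PSMB6 and PSMB7) only PSMB7 was thus measured.

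RNA-seq libraries came from liver biopsies of 23 juvenile male Yorkshire-Landrace pigs, of which 18 were fasted (FS) and 5 were given a bolus of Karo syrup before induction (Carbohydrate Prefed, CPF). All animals, CPF included, had been fasted overnight, were anesthetized, instrumented and splenectomized, and then received a blunt chest injury, hemorrhagic shock and a liver crush injury. Each was biopsied at Baseline (B), before injury, and at 2, 8 and 20 hours of full resuscitation with fluid and shed blood (FR2, FR8 and FR20). No uninjured animals were among the libraries, so that injury with resuscitation and hours under the protocol cannot be told apart. Later 5 animals died (3 FS, 2 CPF) and 18 lived.

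Of 92 libraries 88 were used, with 6877117 to 16613261 counts each (median 12071957). The B libraries of FS animals 17, 19 and 21 were left out because albumin, the main secretory product of hepatocytes, stood at 0.197 to 52.7 counts per 1000000 (CPM), against at least 13202 in every used library. The FR8 library of CPF animal 3, with 4388 counts in total, was also left out. FS groups therefore held 15 libraries at B and 18 at each later timepoint, and CPF groups held 5, with 4 at FR8.

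Timepoint labels were checked against expression. Each used library was compared with the mean profile of each timepoint over the other FS animals, on the 1500 genes that varied most between timepoints, proteasome subunits excluded. It was closest to its own timepoint in 71 of 88 libraries and to another in 17, of which 14 were from FS animals 9, 10, 17, 19 and 21. In animals 17, 19 and 21 the library labelled FR2 was closest to FR8, the library labelled FR8 to B (r = 0.88, 0.70 and 0.90) and the library labelled FR20 to FR2. In animal 10 the library labelled B, a timepoint before injury, was closest to FR8 (r = 0.77, against −0.58 with the B profile). Whether labels were exchanged or animals responded with other timing was not tested. Labels were kept as deposited, and counts are given with and without these 5 animals. Because the animals were picked by how their libraries resembled other timepoints, the fit without them moves toward a cleaner time course by construction.

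Another 2 libraries stood apart. In the FR2 and FR8 libraries of FS animal 11, 1083 of the 10440 genes (10.4%) with counts in all 86 other used libraries were at 0 in both. For no other pair of libraries from 1 animal did this hold for more than 3 genes. PSMC2 was the only subunit among them, and its values are given with and without these libraries. Of the other listed genes APOA1, HBB, ALAS2, CD3D, COL1A2, PAAF1 and UBA1 were at 0 in both, and their values include these libraries.

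Levels below are CPM on TMM-scaled library sizes unless stated otherwise, and are compared only within a gene. A subunit passed at an adjusted p under 0.05 in edgeR's quasi-likelihood test over all genes, in a fit with a term for each animal. Changes are log2 fold changes ± SE.

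By 2 hours of resuscitation most of the measured proteasome genes were upregulated in FS animals. At FR2vB 15 of 21 subunits passed and all 15 were higher, while 20.3% of all genes tested passed higher and 21.1% lower. Their median change was 0.39, against −0.04 over all genes. At FR8vB 14 subunits were higher and 1 was lower (PSME4), with a median of 0.38 against −0.00 over all genes, of which 19.9% passed higher and 19.5% lower. At FR20vB 9 were higher and 2 lower (PSMC5 and PSME4), with a median of 0.22 against 0.04, and 17.4% of all genes passed higher and 16.4% lower. Only PSMA5 and PSMD5 at FR8, and PSMD5 at FR20, passed with a log2 fold change of at least 1, while 4.44% and 4.68% of all genes did. At FR2vB no subunit did, against 5.17% of all genes.

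Without FS animals 9, 10, 17, 19 and 21 14 subunits were higher and 0 lower at FR2vB (median 0.37), 17 higher and 1 lower at FR8vB (median 0.45), and 8 higher and 4 lower at FR20vB (median 0.17). In the same fit 22.8%, 27.2% and 23.2% of all genes passed higher. Without the 2 libraries of animal 11 the counts higher and lower were 16 and 0, 15 and 0, and 10 and 2, with PSMC2 among the added.

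**Figure D1:**
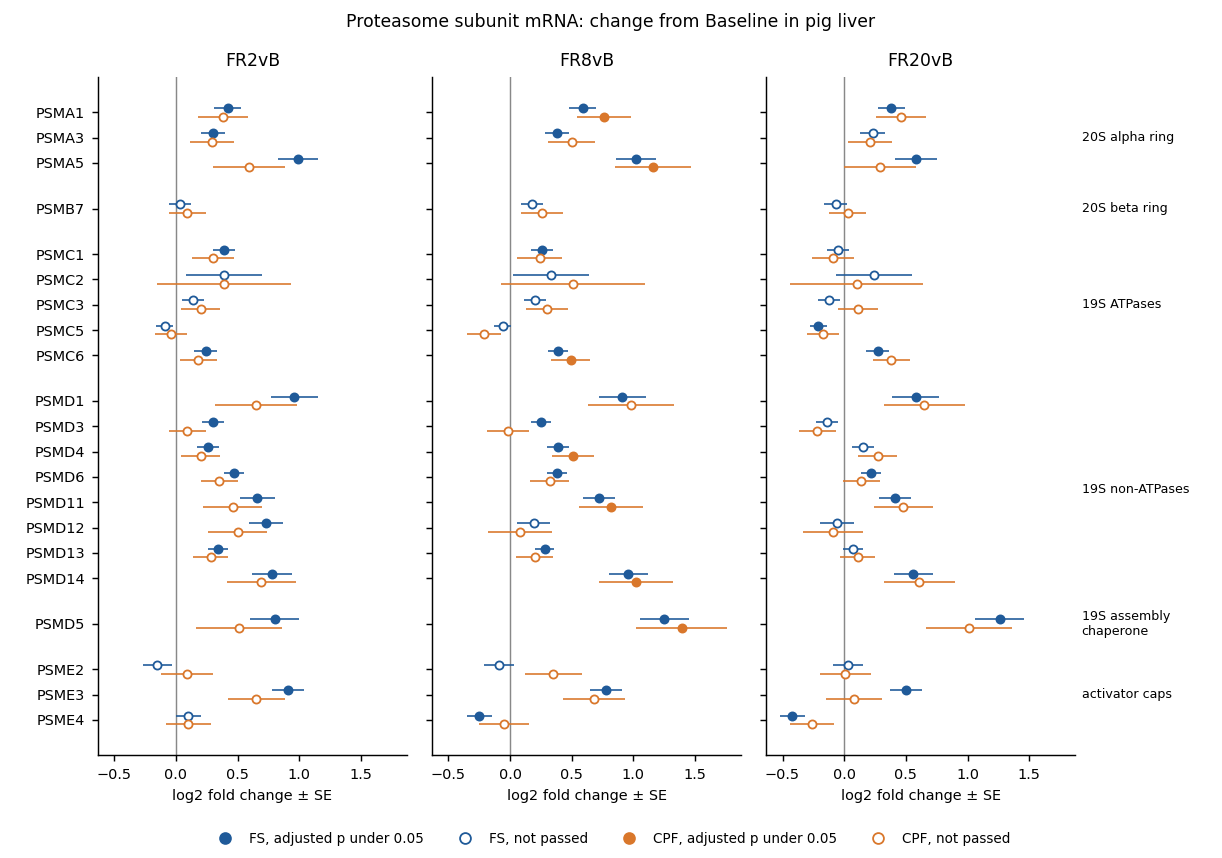
Change of each of the 21 subunits from Baseline, as log2 fold change with its standard error (bars), in FS (blue) and CPF (orange) animals at FR2vB, FR8vB and FR20vB; filled points passed an adjusted p under 0.05. At FR8vB, 14 FS subunits and 7 CPF subunits are filled to the right of 0, with PSMD5 farthest, and PSME4 is filled to the left in FS animals at FR8vB and FR20vB.

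In the 20S core all 3 measured alpha subunits, which form the gated outer rings, were higher at FR2vB and FR8vB in FS animals. PSMA5 changed most among them. Its FS level ran from 44.5 to 140 CPM at B (median 63.4), 104 to 189 at FR2 (median 138), 55.6 to 202 at FR8 (median 151) and 58.5 to 200 at FR20 (median 98.1). All 18 FR2 libraries lay above the B median, although the ranges overlapped. PSMA5 was upregulated by 0.99 ± 0.16 at FR2vB (1.98-fold, adjusted p = 3.13e-06), 1.02 ± 0.16 at FR8vB (2.03-fold, adjusted p = 2.09e-06) and 0.58 ± 0.17 at FR20vB (adjusted p = 0.00479), and was higher than B in 14, 14 and 13 of 15 animals. The 2 lowest FR8 values, 55.6 and 56.1 CPM, were in animals 17 and 21, and the highest FR20 value, 200 CPM, was in animal 19. The changes of PSMA1 were 0.42 ± 0.11, 0.59 ± 0.11 and 0.38 ± 0.11 (adjusted p = 0.00233, 3.58e-05 and 0.00751). Without the 5 animals PSMA3 did not pass at FR2vB (0.23 ± 0.10, adjusted p = 0.0533). With all used libraries PSMA3 was higher at FR2vB by 0.30 ± 0.10 and at FR8vB by 0.38 ± 0.10, and at FR20vB stood at 0.23 ± 0.10 (adjusted p = 0.0614).

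PSMB7, the catalytic subunit with trypsin-like activity, passed in no change from B. FS levels were 104 to 208 CPM at B (median 155), 127 to 222 at FR2 (median 152), 133 to 216 at FR8 (median 178) and 111 to 205 at FR20 (median 139). The groups overlapped over most of their range. Its changes were 0.03 ± 0.09 (adjusted p = 0.83), 0.18 ± 0.09 (0.09) and −0.07 ± 0.09 (0.564). Without the 5 animals PSMB7 passed at FR8vB with 0.24 ± 0.09 (adjusted p = 0.0197).

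Of the 5 ATPases of the 19S base 2 were higher at FR2vB, 2 at FR8vB and 1 at FR20vB in FS animals, where 1 was also lower. PSMC1 and PSMC6, members of the hexameric ring that threads substrates into the core, were higher at FR2vB and FR8vB, by 0.39 ± 0.09 and 0.26 ± 0.09 for PSMC1 and by 0.24 ± 0.09 and 0.39 ± 0.08 for PSMC6. PSMC3 stood at 0.14 ± 0.09 and 0.20 ± 0.09 without passing (adjusted p = 0.199 and 0.0695), and passed at both timepoints without the 5 animals (0.19 ± 0.08 and 0.25 ± 0.08). PSMC5 had estimates of −0.09 ± 0.07 and −0.06 ± 0.07, and was lower at FR20vB by −0.21 ± 0.07 (adjusted p = 0.0212, lower in 14 of 15 animals), a direction that turned to 0.20 (adjusted p = 0.0136) when libraries were scaled by their totals without TMM.

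PSMC2 turned on animal 11. Its FS level was 80.2 to 175 CPM at B (median 127), with medians of 178 at FR2, 179 at FR8 and 133 at FR20, and it was at 0 in the FR2 and FR8 libraries of that animal alone. With them the changes were 0.39 ± 0.31, 0.33 ± 0.31 and 0.24 ± 0.31, and none passed. Without them they were 0.58 ± 0.10 (adjusted p = 1.16e-05), 0.52 ± 0.10 (adjusted p = 7.46e-05) and 0.26 ± 0.10 (adjusted p = 0.0414).

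The non-ATPase subunits of the 19S particle made up 8 of the 15 that passed at FR2vB. All 8 were higher at FR2vB in FS animals, 7 at FR8vB and 4 at FR20vB, and none was lower. PSMD14, the deubiquitinase that releases ubiquitin chains from substrates, ran from 19.8 to 57.9 CPM at B (median 40.8), 41.4 to 85.4 at FR2 (median 64), 26.7 to 108 at FR8 (median 78.1) and 32.9 to 85.1 at FR20 (median 52.7). At FR2 and at FR8, 13 of 18 libraries were above the whole B range. The changes were 0.78 ± 0.16 (adjusted p = 1.04e-04), 0.96 ± 0.16 (adjusted p = 3.72e-06) and 0.56 ± 0.16 (adjusted p = 0.00531), with all 15 animals higher at FR8vB.

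PSMD1, the large scaffold that docks ubiquitin receptors, varied widely between animals, from 10.2 to 69.4 CPM at B (median 24.6) and from 16.2 to 122 at FR2 (median 55). It was upregulated by 0.96 ± 0.19 at FR2vB (adjusted p = 5.55e-05), 0.91 ± 0.19 at FR8vB and 0.58 ± 0.19 at FR20vB. PSMD11, a scaffold subunit of the lid whose level is known to limit proteasome assembly in some cells, had medians of 33, 56, 62.4 and 47.5 CPM from B to FR20. Its changes were 0.66 ± 0.14, 0.72 ± 0.13 and 0.41 ± 0.13, each of which passed. PSMD6, of the lid, was higher at all 3 timepoints (0.47, 0.38 and 0.22). The ubiquitin receptor PSMD4 was higher by 0.26 ± 0.09 and 0.39 ± 0.09 at FR2vB and FR8vB, and the lid subunits PSMD3 (0.30 and 0.25) and PSMD13 (0.34 and 0.28) were also higher at both, while at FR20vB the 3 stood at 0.15, −0.14 and 0.07 and did not pass.

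PSMD12, also of the lid, had a different time course. FS levels were 56.1 to 90.1 CPM at B (median 62.7), 50.5 to 161 at FR2 (median 118), 52 to 109 at FR8 (median 76.2) and 46.2 to 135 at FR20 (median 54.2). It was upregulated at FR2vB by 0.73 ± 0.14 (1.66-fold, adjusted p = 1.88e-05), stood at 0.19 ± 0.13 at FR8vB (adjusted p = 0.275), and fell between FR2 and FR8 by 0.55 ± 0.13 (adjusted p = 9.46e-04, lower in 17 of 18 animals). The 3 highest FR20 values, 117, 132 and 135 CPM, were in animals 19, 21 and 17, whose libraries labelled FR20 were closest to FR2. At FR20vB it stood at −0.06 ± 0.14 (adjusted p = 0.775), and at −0.34 ± 0.08 (adjusted p = 5.47e-04) without the 5 animals.

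PSMD5, a chaperone that assists assembly of the 19S base and leaves the mature particle, was the subunit with the highest change at FR8vB and FR20vB. In FS animals it ran from 2.73 to 15.2 CPM at B (median 6.68), 2.4 to 23.6 at FR2 (median 12.6), 4.88 to 25.7 at FR8 (median 18.1) and 4.39 to 32 at FR20 (median 18.4). Above the whole B range were 4 of 18 libraries at FR2, 12 at FR8 and 13 at FR20. Its changes were 0.80 ± 0.20 (adjusted p = 0.00107), 1.25 ± 0.20 (2.37-fold, adjusted p = 1.94e-06) and 1.26 ± 0.20 (2.39-fold, adjusted p = 1.22e-06), with all 15 animals higher at FR20vB. A second identifier that the study's table also pairs with PSMD5, not counted among the 21, was higher at the same timepoints by 0.43 ± 0.14, 0.84 ± 0.13 and 0.78 ± 0.13. How reads of the 2 identifiers were divided is not given in the sources used here.

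**Figure D2:**
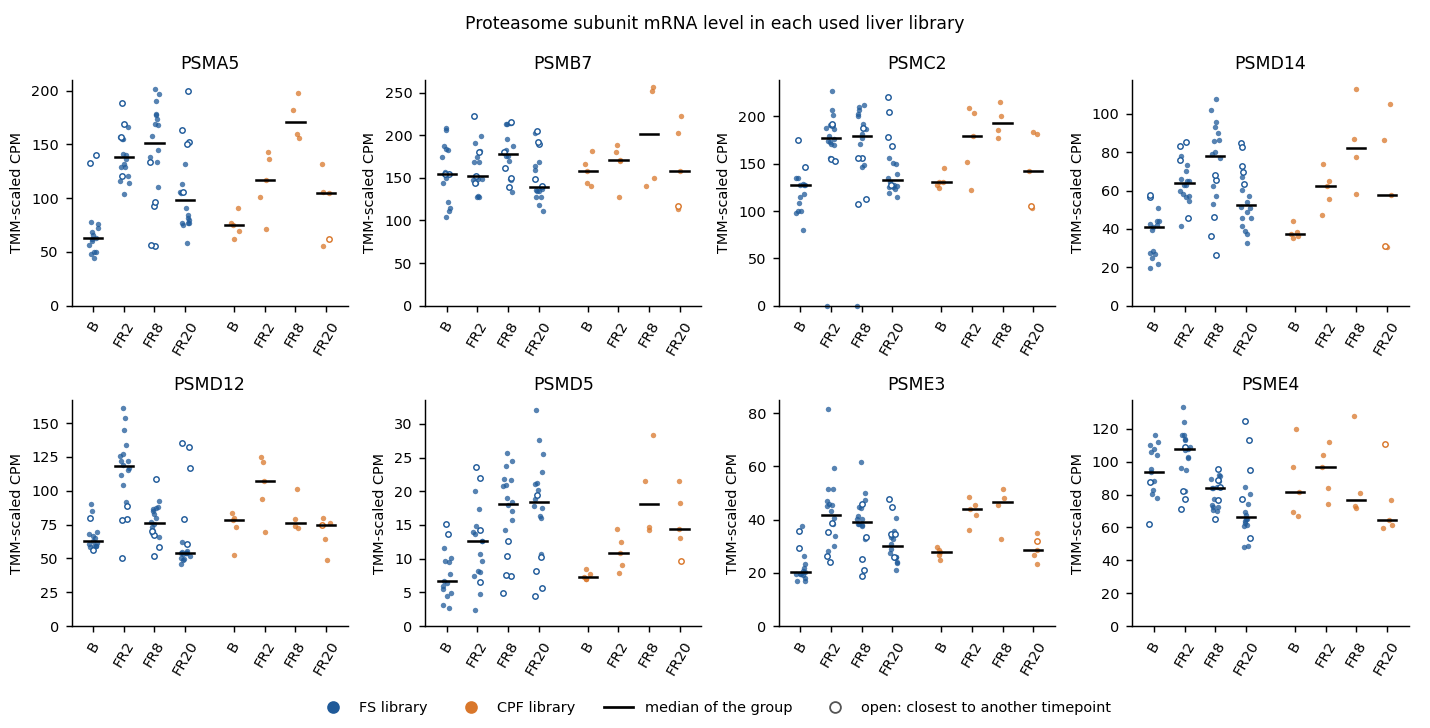
Level of 8 subunits in each used library, in TMM-scaled CPM on a linear axis from 0, by fed state and timepoint, with the median of each group as a bar; open points are libraries whose profile was closest to another timepoint. PSMD5 keeps its FS median at 18.1 and 18.4 CPM at FR8 and FR20, PSMD12 has its FS median of 118 CPM at FR2 and 54.2 at FR20, and PSMC2 is at 0 in the FR2 and FR8 libraries of animal 11.

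The activator caps did not move together. PSME3, the nuclear cap PA28 gamma, had FS levels of 16.8 to 37.4 CPM at B (median 20.3), 24.1 to 81.5 at FR2 (median 41.9), 18.7 to 61.7 at FR8 (median 39.3) and 21.2 to 47.6 at FR20 (median 29.9). All 18 libraries at FR2 and at FR20 were above the B median. Changes of 0.91 ± 0.13 (1.88-fold, adjusted p = 2.20e-07), 0.78 ± 0.13 (adjusted p = 3.75e-06) and 0.50 ± 0.13 (adjusted p = 0.00231) were found, the first of these having the lowest adjusted p of the 21 subunits at FR2vB.

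PSME2, a subunit of the interferon-inducible cap PA28, passed at no timepoint. Its FS medians were 69.9, 72.1, 74.6 and 84.2 CPM from B to FR20, and the changes were −0.15 ± 0.12, −0.09 ± 0.12 and 0.03 ± 0.12. PSME4, the cap PA200 that is known for roles in histone degradation, went the other way. From 62.2 to 116 CPM at B (median 93.5), it stood at 71.3 to 133 at FR2 (median 108), 65.4 to 95.8 at FR8 (median 84) and 48 to 125 at FR20 (median 66.4). PSME4 was at 0.10 ± 0.10 at FR2vB (adjusted p = 0.459) and was downregulated by −0.25 ± 0.10 at FR8vB (adjusted p = 0.0467) and −0.42 ± 0.10 at FR20vB (adjusted p = 0.00114, lower in 14 of 15 animals). With library totals in place of TMM the FR8vB estimate was 0.02 (adjusted p = 0.861). Under that scaling 0 subunits passed lower at FR20vB, so PSME4 lost its call there too. The FR8vB call of PSME4 was lost in 12 of 18 fits that left out 1 FS animal (−0.32 to −0.22), and without the 2 libraries of animal 11 (adjusted p = 0.0572).

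Time courses were grouped by which changes from B passed in FS animals. PSMA1, PSMA5, PSMC6, PSMD1, PSMD5, PSMD6, PSMD11, PSMD14 and PSME3 were higher at all 3 timepoints. Without the 5 animals PSMC6 did not pass at FR2vB (0.19 ± 0.08, adjusted p = 0.0527) or PSMD6 at FR20vB (0.17 ± 0.08, adjusted p = 0.0732), and PSMD6 at FR20vB also lost the call in 5 of 18 fits that left out 1 FS animal. PSMA3, PSMC1, PSMD3, PSMD4 and PSMD13 passed at FR2 and FR8 but not at FR20. Between FR8 and FR20 the estimate was lower for 19 of 21 subunits, with PSMD5 and PSME2 as the exceptions, and the median of the FR20vFR8 changes was −0.24.

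Fewer subunits passed when the later timepoints were set against each other directly. At FS FR8vFR2, 0 were higher and 2 lower (PSMD12 and PSME4, −0.35 ± 0.10), while 14.5% of all genes were higher and 13.9% lower. At FS FR20vFR8, 0 were higher and 4 lower, namely PSMD3 (−0.40 ± 0.08, adjusted p = 0.00141), PSMC3 (−0.32 ± 0.08), PSMC1 (−0.31 ± 0.09) and PSMB7 (−0.25 ± 0.08), while 3.07% and 3.33% of all genes passed. Without the 5 animals 8 subunits were higher and 2 lower at FR8vFR2 (24.2% and 23.4% of all genes), PSMD5 by 0.84 ± 0.17 (adjusted p = 5.60e-05) and PSMA5 by 0.28 ± 0.12 among the higher. At FR20vFR8, 15 were then lower and 0 higher (13.8% and 15.2% of all genes), PSMA5 by −0.85 ± 0.12 (adjusted p = 1.84e-07) and PSMD14 by −0.70 ± 0.14 (adjusted p = 1.20e-04) among them, and PSMD5 stood at 0.03 ± 0.17. Leaving out single animals gave 2 (without animal 2, 10, 11, 12 or 16) to 8 (without 17, 19 or 21) at FR20vFR8, and with library totals in place of TMM 0 passed.

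**Figure D3:**
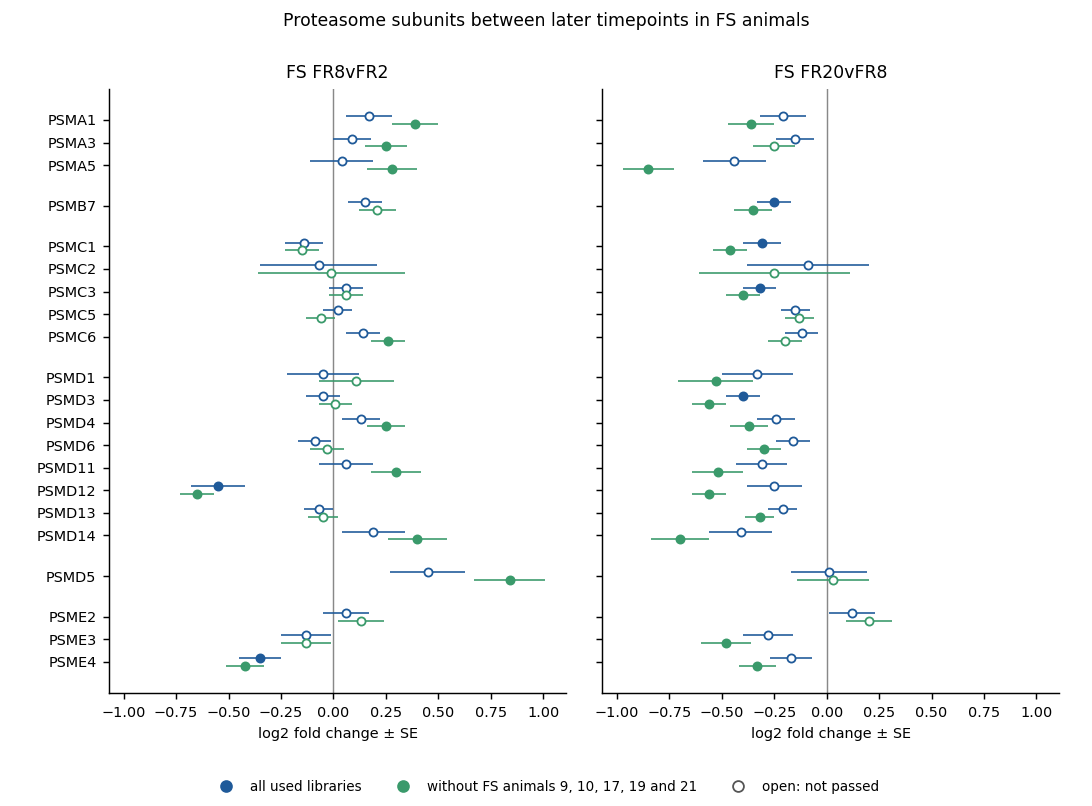
Change of the 21 subunits in FS animals from FR2 to FR8 and from FR8 to FR20, as log2 fold change with its standard error (bars), with all used libraries (blue) and without animals 9, 10, 17, 19 and 21 (green); filled points passed. At FR20vFR8, 4 blue points and 15 green points are filled, all below 0, and PSMD5 lies at 0.01 and 0.03.

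Within single animals the median change of the 21 subunits from B was above 0 in 14 of 15 FS animals at FR2, 14 at FR8 and 11 at FR20. It ran from −0.13 to 0.78 at FR2, −0.03 to 0.75 at FR8 and −0.29 to 0.40 at FR20. The lowest at FR20 was that of animal 10. In CPF animals it was above 0 in all 5 at FR2 (0.07 to 0.51), all 4 at FR8 (0.36 to 0.71) and 3 of 5 at FR20. At FR20 the 2 CPF animals that died, 7 and 8, stood at 0.42 and 0.53, and those that lived, 3, 13 and 18, at −0.27, −0.23 and 0.11. Of these, animal 13 had an FR20 library closest to the B profile (r = 0.83, against −0.49 with the FR20 profile). Among FS animals the 3 that died stood at 0.01, 0.06 and −0.07 at FR20, within the range of those that lived.

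**Figure D4:**
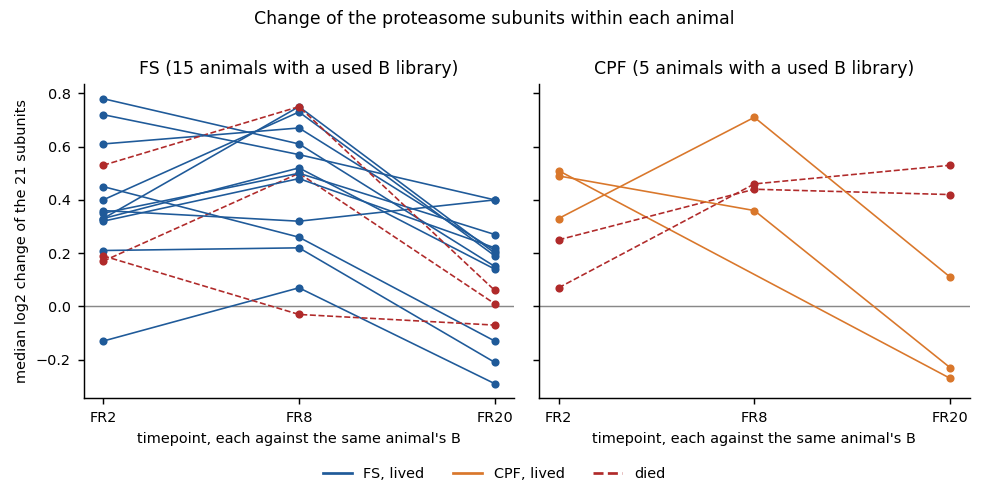
Median log2 change of the 21 subunits from the same animal's Baseline, for each FS animal (left) and CPF animal (right), with broken red lines for animals that died; animals without a used B library are not drawn. FS lines at FR8 run from −0.03 to 0.75 and at FR20 from −0.29 to 0.40, and the 2 broken CPF lines end at 0.42 and 0.53.

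In CPF animals the estimates had the same sign as in FS animals for 20, 19 and 19 of 21 subunits at FR2vB, FR8vB and FR20vB, with fewer past the threshold. The share of all genes with the same sign is not given here, so this agreement cannot be read as particular to the subunits. At FR8vB 7 of 21 were higher and 0 lower, while 6.31% of all genes were higher and 6.99% lower, and the median was 0.49 against 0.04 over all genes. All 7 also passed at FR8vB in FS animals, and 3 of the 7 had a log2 fold change of at least 1 (3.7% of all genes). At FR2vB and FR20vB 0 passed in edgeR's quasi-likelihood test, DESeq2 or the likelihood ratio test. In the first, 5 of 21 had an unadjusted p under 0.05 at each, not far from 20% and 16.5% of all genes. Passing genes were few at these timepoints (2% higher and 1.4% lower at FR2vB, 0.278% and 0.615% at FR20vB). Medians were 0.30 and 0.11. The CPF tests rest on 4 or 5 animals and on a spread estimated over all libraries. Without the 5 FS animals, which changes that spread and not the CPF libraries, 4, 10 and 1 passed at FR2vB, FR8vB and FR20vB, the 4 at FR2vB being PSMA5, PSMD12, PSMD14 and PSME3. In that fit 6.53%, 11.9% and 4.05% of all genes passed higher, so that 1 of 21 at FR20vB was near the share of all genes.

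PSMD5 in CPF animals stood at 7.24, 8.42, 6.93, 7.74 and 7.05 CPM at B in animals 3, 7, 8, 13 and 18, and at 14.2, 14.7, 28.3 and 21.6 CPM at FR8 in animals 7, 8, 13 and 18. The ranges did not overlap. Its change was 1.39 ± 0.37 (2.62-fold, adjusted p = 0.0101) at FR8vB, and at FR20vB, with 9.7 to 21.6 CPM, 1.01 ± 0.35 (adjusted p = 0.124). PSMA5 was at 61.9 to 90.8 CPM at B and at 156, 160, 182 and 198 CPM in animals 7, 8, 13 and 18 at FR8. Each FR8 library was above every B library, and the change was 1.16 ± 0.31 (adjusted p = 0.0104). For PSMD14 the B values were 35.5 to 44.1 CPM and the FR8 values 86.7, 77.3, 58.1 and 113 in the same order, a change of 1.02 ± 0.30 (adjusted p = 0.0195). At FR20 PSMD14 was at 86.3 and 105 CPM in animals 7 and 8, at 30.6 and 31.1 in animals 3 and 13, and at 57.9 in animal 18. The library labelled FR20 of animal 13 was closest to the B profile (r = 0.83).

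Also higher at CPF FR8vB were PSMD11 (0.82 ± 0.26), PSMA1 (0.76 ± 0.22), PSMD4 (0.51 ± 0.17) and PSMC6 (0.49 ± 0.16). The count of 7 rested on single animals: it was 6 without animal 3 or 7, 4 without animal 13, 3 without animal 8 and 0 without animal 18. PSMD1 stood at 0.98 ± 0.35 (adjusted p = 0.053) and PSME3 at 0.68 ± 0.25 (adjusted p = 0.0565). At FR2vB the lowest adjusted p was that of PSME3 (0.65 ± 0.23, adjusted p = 0.0931), with 36 to 48.5 CPM against 24.8 to 29.6 at B and all 5 animals higher. PSMD14 and PSMD1 had the highest estimates there with 0.69 ± 0.28 and 0.65 ± 0.33. PSMB7, PSMD3 and PSME2 had 0.09 and PSMC5 had −0.04 ± 0.13, the lowest. The lowest estimates were those of PSMC5 (−0.21 ± 0.14) and PSME4 (−0.05 ± 0.20) at FR8vB, and of PSME4 (−0.26 ± 0.18) and PSMD3 (−0.22 ± 0.15) at FR20vB. From FR8 to FR20 the CPF estimate was lower for 20 of 21 subunits with a median of −0.29. At CPF FR20vFR8 0 passed in edgeR's quasi-likelihood test (0.00732% of all genes passed higher and 0.0146% lower). An unadjusted p under 0.05 was held by 2 subunits and by 10.9% of all genes. At CPF FR8vFR2 0 also passed, with a median of 0.17 (4.05% of all genes passed higher and 3.17% lower). There 1 subunit and 26.6% of all genes had an unadjusted p under 0.05.

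The question of the study was whether fed state alters the response, and for proteasome subunits no difference passed. As interactions (the CPF change minus the FS change) 0 subunits passed at FR2vB, FR8vB or FR20vB in edgeR's quasi-likelihood test, DESeq2 or the likelihood ratio test, and in the first 0 had an unadjusted p under 0.05 and 0% of all genes passed. Of all genes 2.9%, 3.42% and 3.81% had an unadjusted p under 0.05. The median differences of the subunits were −0.06, 0.10 and 0.05. The smallest p-values were those of PSMD3 at FR2vB (−0.22 ± 0.17, unadjusted p = 0.218), PSME2 at FR8vB (0.44 ± 0.26, unadjusted p = 0.0962) and PSME3 at FR20vB (−0.42 ± 0.27, unadjusted p = 0.122).

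When CPF and FS libraries of 1 timepoint were compared directly, 0 subunits passed at B, FR2, FR8 and FR20 in edgeR's quasi-likelihood test, DESeq2 or the likelihood ratio test. In the quasi-likelihood test 0.0342% of all genes were higher in CPF at B and 0% lower, and at the later timepoints 0% passed. DESeq2 passed 46 genes higher and 24 lower at B, 9 lower at FR8 and 2 lower at FR20, and the likelihood ratio test 41 higher and 7 lower at B and 2 higher at FR2. The median differences, CPF over FS, were 0.04, −0.01, 0.15 and 0.09. An unadjusted p under 0.05 was found for PSMC1 at B (0.29 ± 0.13, adjusted p = 0.588), PSMA5 at FR2 (−0.31 ± 0.15, adjusted p = 0.891) and PSME2 at FR8 (0.50 ± 0.20, adjusted p = 0.955), and for 0 subunits at FR20, where PSMC1 was lowest (unadjusted p = 0.164). Of all genes 7.66%, 5.58%, 5.17% and 3.25% had an unadjusted p under 0.05 at B, FR2, FR8 and FR20. PSME2 at FR8 was at 134, 69.5, 84.8 and 167 CPM in CPF animals 7, 8, 13 and 18, against an FS range of 57.7 to 116. It was the 2 libraries of animals 7 and 18 that lay above that range.

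Between animals that died and animals that lived, with fed state as a covariate, 0 subunits passed at B, FR2, FR8 and FR20 in any of the 3 tests, and in the first neither did any other gene (0%). The medians, died over lived, were −0.00, −0.09, 0.01 and 0.07. The only unadjusted p under 0.05 was that of PSMA5 at FR2 (−0.30 ± 0.14, unadjusted p = 0.044, adjusted p = 0.896), and the next were those of PSMD14 at FR2 (−0.27 ± 0.14, unadjusted p = 0.0675), PSMA3 at FR20 (0.31 ± 0.16, unadjusted p = 0.0688) and PSMC1 at B (0.22 ± 0.12, unadjusted p = 0.0792). At FR8 the smallest was that of PSME2 (−0.30 ± 0.20, unadjusted p = 0.137). The second identifier paired with PSMD5, not counted among the 21, did not pass in the quasi-likelihood test either. It stood at −0.42 ± 0.16 at B (unadjusted p = 0.0182, adjusted p = 0.472) and −0.58 ± 0.18 at FR2 (unadjusted p = 0.00353, adjusted p = 0.661). At FR8 and FR20 it stood at −0.03 ± 0.20 and 0.28 ± 0.19. Of all genes 8.54% had an unadjusted p under 0.05 at B and 5.52% at FR2.

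The immunoproteasome, whose catalytic subunits replace the constitutive ones after interferon gamma, was near the limit of detection. PSMB8 had at most 18 counts summed over the libraries of any group and was not tested in the fit of changes. PSMB9 had group medians of 0 to 0.264 CPM and stood at −0.30 ± 0.65, −0.16 ± 0.64 and 0.68 ± 0.60 in the 3 FS changes without passing. PSMB10 is not analysed here. Among 7 other interferon gamma targets tested, 2 were higher at FS FR2vB (20.3% of all genes), 1 higher and 1 lower at FR8vB, and 1 higher and 1 lower at FR20vB. At FR8vB and FR20vB 19.9% and 17.4% of all genes passed higher, and 19.5% and 16.4% lower. IDO1, which degrades tryptophan, was higher at FR2vB by 2.09 ± 0.53 (adjusted p = 0.00115) from a median of 0.172 CPM to 0.807. WARS1, a tryptophanyl tRNA synthetase, was higher at all 3 timepoints (0.83, 0.78 and 0.70), and the GTPase GBP2 was lower at FR8vB and FR20vB (−0.81 ± 0.22 and −0.73 ± 0.22).

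Of the 20S assembly chaperones PSMG3 alone was tested and it did not pass (0.14 ± 0.12, 0.08 ± 0.12 and 0.09 ± 0.12 in the FS changes), and POMP is not analysed here. Of 7 proteasome-associated factors tested 5 were higher and 0 lower at FS FR2vB, 2 higher and 0 lower at FR8vB, and 1 higher at FR20vB, with medians of 0.34, 0.08 and 0.05. In these changes 20.3%, 19.9% and 17.4% of all genes passed higher, so the counts at FR8vB and FR20vB were not far from the share of all genes. AKIRIN2, an adaptor for nuclear import of proteasomes, was higher at FR2vB (0.56 ± 0.13, adjusted p = 3.33e-04) and stood at 0.08 ± 0.13 at FR8vB. ECPAS, an adaptor that binds the 26S particle, was higher at all 3 timepoints (0.55 ± 0.09, 0.23 ± 0.08 and 0.44 ± 0.09). In CPF animals none of the 7 passed at FR8vB (6.31% of all genes passed higher and 6.99% lower).

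The NRF1 route takes NFE2L1 out of the endoplasmic reticulum and activates it. NFE2L1 itself stood at 0.15 ± 0.20, −0.35 ± 0.21 and −0.30 ± 0.20 in the FS changes, with medians of 21.8, 25.9, 20.2 and 19.6 CPM from B to FR20, and passed at none. VCP, the segregase that extracts ubiquitinated proteins from membranes, was higher at FR2vB and FR8vB. Its FS levels ran from 215 to 895 CPM at B (median 272), 288 to 604 at FR2 (median 424), 234 to 1001 at FR8 (median 667) and 248 to 483 at FR20 (median 378), and its changes were 0.47 ± 0.17 (adjusted p = 0.02), 0.99 ± 0.17 (adjusted p = 4.60e-06) and 0.31 ± 0.17 (adjusted p = 0.145). CPF levels of VCP were 240 to 321 CPM at B and 625 to 722 at FR8, ranges that did not overlap, with a change of 1.17 ± 0.31 (adjusted p = 0.0105). The VCP cofactors NPLOC4 (0.66 ± 0.12 and 0.57 ± 0.12) and UFD1 (0.40 ± 0.12 and 0.58 ± 0.12) were higher at FS FR2vB and FR8vB, and NFE2L2, the oxidative stress factor NRF2, was lower at FR2vB (−0.45 ± 0.12). Of the 7 genes tested 3 were higher and 1 lower at FR2vB, 5 higher at FR8vB and 2 higher at FR20vB, with 0 lower at either. The shares of all genes that passed higher were 20.3%, 19.9% and 17.4%.

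Of 8 ubiquitin genes, E1 enzymes and shuttle receptors, 2 were higher and 0 lower at FS FR2vB, 3 higher and 1 lower at FR8vB, and 4 higher and 0 lower at FR20vB. Of all genes 20.3%, 19.9% and 17.4% passed higher in these changes. SQSTM1, the autophagy receptor p62, was higher at FR2vB by 1.00 ± 0.18 (adjusted p = 1.07e-05), from a median of 516 CPM to 1139. At FR8vB UBB, which encodes a polyubiquitin, was lower (−0.46 ± 0.15), and how reads of its repeated, near-identical units were counted is not given in the sources used here. UBA6, an activating enzyme for ubiquitin, and UBQLN4, a shuttle, were higher at FR8vB (0.53 ± 0.16 and 0.61 ± 0.12), and UBA6 was also higher at CPF FR8vB (0.95 ± 0.30, adjusted p = 0.0266).

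**Figure D5:**
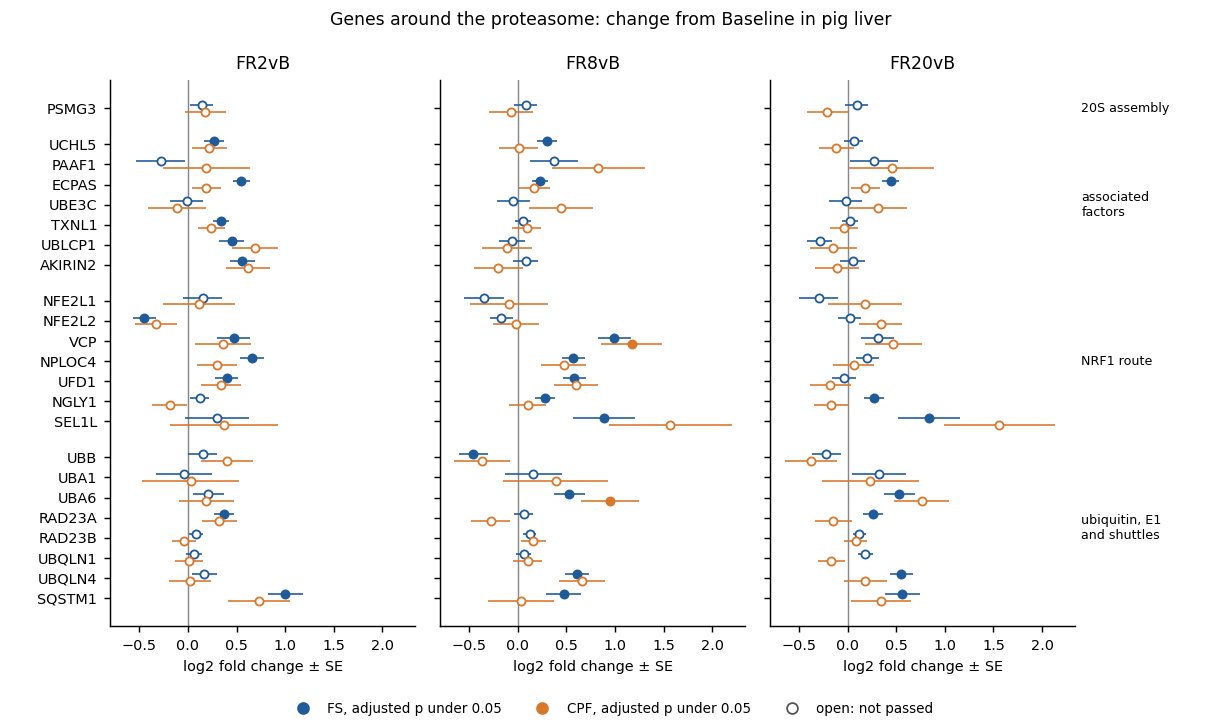
Change from Baseline of genes around the proteasome, as log2 fold change with its standard error (bars), in FS (blue) and CPF (orange) animals; filled points passed an adjusted p under 0.05. VCP and UBA6 are filled in both fed states at FR8vB, SQSTM1 is filled at 1.00 in FS animals at FR2vB, and NFE2L1 is open throughout.

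Markers of the cells in the biopsy moved over the same timepoints. The summed level of 9 hepatocyte markers had FS medians of 214126, 151621, 89280 and 57130 CPM from B to FR20 (ranges 90122 to 241070, 59965 to 182064, 60330 to 210003 and 25927 to 167076), and CPF medians of 200097, 151401, 92442 and 55492. At FS FR8vB 4 of the 9 were lower (albumin by −1.43 ± 0.25) and 1 was higher (FGB, fibrinogen beta, 1.10 ± 0.36). APOA1 was at 0 in the FR2 and FR8 libraries of animal 11. In these bulk samples fewer cells of a type and less RNA per cell cannot be told apart. Of 3 neutrophil markers tested 2 were higher at FR2vB, with a summed FS median of 0.442 CPM at B, 5.06 at FR2, 2.27 at FR8 and 2.2 at FR20, and CSF3R was listed at 0 in every library. Of 5 macrophage markers 3, 4 and 4 were lower in the FS changes (summed medians 1505, 1125, 991 and 992 CPM), and of 7 T and NK cell markers 1, 3 and 4 were lower (64.2, 57, 50.4 and 44.6 CPM). Of 3 B cell markers 2, 0 and 2 were lower, of 5 striated muscle markers 2, 1 and 1, and of 2 erythroid markers (HBB and ALAS2, both at 0 in the FR2 and FR8 libraries of animal 11) 1, 2 and 2. Endothelial markers were mixed (1 higher and 1 lower, then 1 and 0, and 1 and 0, of 4), stellate cell markers were lower at FR2vB and FR8vB (3 of 5 at each, with 1 higher at FR2vB), and of 2 cholangiocyte markers 1 was higher at FR2vB and 1 lower at FR8vB and FR20vB. Of all genes 20.3%, 19.9% and 17.4% passed higher and 21.1%, 19.5% and 16.4% lower in the FS changes FR2vB, FR8vB and FR20vB. The part of these cell types in the subunit changes was not tested.

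Scaling also bore on the counts. Library totals in place of TMM shifted the median of all genes to 0.15, 0.25 and 0.45 in the FS changes (−0.04, −0.00 and 0.04 with TMM), and the share of passing genes that were higher went from 49.1%, 50.5% and 51.5% to 71.1%, 75.9% and 89.3%. The subunits were then higher in 17, 18 and 19 of 21 cases and lower in none, with medians of 0.57, 0.64 and 0.62. A scaling factor is shared by all genes of a library. The distance of the subunits' medians from the median of all genes is therefore nearly unchanged by construction, which is no further evidence.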

How the data were processed

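Single reads of poly(A) libraries were aligned by the authors with TopHat 1.5.0 to Sscrofa10.2 after CASAVA 1.8.2, and counts per pig Ensembl gene were made with HTSeq. How HTSeq treated strand and overlaps is not given in the sources used here. The deposited counts are raw, not normalized and not pooled, and all 92 columns matched a library by name. Symbols, found for 11804 of 25322 identifiers, came from a gene name table. The study's tables gave only the pairing of the second identifier with PSMD5. No reference sequence of the build was used.

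Counts were analyzed in R 4.3.3 with limma 3.58.1, edgeR 4.0.16 and DESeq2 1.42.0. In each fit, genes whose CPM (counts per 1000000) summed to 10 or more entered edgeR's quasi-likelihood F test (2-sided) on TMM-scaled library sizes, with Benjamini-Hochberg adjustment over all genes. Changes were fitted on 88 libraries, each animal having its own term and FS and CPF having separate timepoint terms, as in the study's model. CPF was set against FS, and animals that died against those that lived with fed state as a covariate, on the libraries of each timepoint. Within an animal, log2 CPM (prior count 2) were subtracted. Depth was 6877117 to 16613261 counts, and no counts of 2 libraries were identical. A replicate number in the labels marks 1 animal, biopsied at each timepoint, which is where the pairing comes from. Residuals correlated at a median of 0.205 between same-animal libraries (over 0.1 in 94 of 126 pairs) and −0.024 between animals (543 of 2391). No sequencing batch is named in the labels.

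On simulated counts of 13625 genes, with 100 genes changed by 1 and 100 by 0.5 on the log2 scale, the test recovered 100 and 92 at FS FR8vB (13 false) and 99 and 14 at CPF FR8vB (8 false), and passed 0 at FS FR2vB and for the FR8vB interaction, where none was changed. The simulated spread was set by hand, with no libraries closest to another timepoint, so these recoveries need not hold for the subunits. A change that differed by fed state was not simulated.

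The members and gene lists were chosen with earlier results of these data known. Single values are given for the 3 highest and 2 lowest subunits of each change from B, for PSMB7, PSMD14, the assembly chaperones and the caps, for the smallest p-values between groups, and for genes of other lists past a log2 fold change of 1. PSMC2, PSMD12 and the other subunits and listed genes given with values were chosen after their values were seen. Alternatives were RLE size factors, no filter, filterByExpr, DESeq2, the likelihood ratio test, a fold threshold, no animal terms, the 4 libraries restored and each animal left out. Library totals, and leaving out the libraries that stood apart, were added after seeing the data. A gene of the ubiquitin list is not reported here. The study's own fold changes and p-values were not used. Python 3.11.15 with pandas 2.3.3, numpy 2.4.6 and matplotlib 3.10.9 made tables and figures.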

Additional observations from a re-analysis of the deposited data

Results flagged for a closer look

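In the CPF groups, which hold 4 or 5 libraries, each subunit was checked for 1 library far from the others (Dixon's criterion at the 95% level). Of 84 groups 7 met it, and chance alone meets it in about 1 group of 20. In animal 8 the lowest value stood apart for 3 subunits, of the ATPase ring, the lid and the ubiquitin receptor. PSMC3 was at 105 CPM at B, where the others were at 145 to 152, and at 111 CPM at FR2, where the others were at 166 to 185. PSMD13 was at 79 CPM at B (others 96.2 to 102) and at 93.9 CPM at FR2 (others 116 to 124). PSMD4 in the same animal was at 64.6 CPM at B (others 82.1 to 86.2). At FR8 the library of animal 7 was lowest for PSMD3 with 181 CPM (others 241 to 248), and the library of animal 13 was highest for PSME4 with 128 CPM (others 72.1 to 80.8). PSMC3, PSMD13, PSMD3 and PSME4 passed in no CPF change from B with all used libraries, and PSMD4 passed at FR8vB.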

How the results depend on the processing

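Of 57 changes of single subunits, all 57 kept their direction and side of the threshold under DESeq2, the likelihood ratio test and filterByExpr, and 56 under RLE size factors. The call was lost for 6 with no filter on low counts, for 3 without FS animals 9, 10, 17, 19 and 21, for 1 without the libraries closest to another timepoint, and for 2 without the FR2 and FR8 libraries of animal 11, where 3 gained one. With the 4 left-out libraries restored 27 lost the call and 2 reversed, PSMD11 to −0.01 at FS FR2vB and −0.23 at FS FR20vB, and the counts of subunits that passed were 9 at FS FR8vB, 2 at FS FR20vB, 1 at FS FR20vFR8 and 1 at CPF FR8vB. With library totals in place of TMM (chosen after seeing the data) 2 reversed, PSME4 to 0.02 at FS FR8vB and PSMC5 to 0.20 at FS FR20vB, and 19 passed at FS FR20vB, 0 at FS FR20vFR8, 12 at CPF FR8vB and 3 at CPF FR20vB.

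Counts without FS animals 9, 10, 17, 19 and 21, also chosen after seeing the data, were 10 at FS FR8vFR2, 15 at FS FR20vFR8, 4 at CPF FR2vB, 1 at CPF FR20vB, 3 at CPF FR8vFR2 and 1 at CPF FR20vFR8. Without the 17 libraries closest to another timepoint they were 11, 15, 4, 4, 3 and 1. With a log2 fold change of at least 1 required, 0 passed at FS FR2vB, 2 at FR8vB, 1 at FR20vB, 0 at FR8vFR2, 0 at FR20vFR8 and 3 at CPF FR8vB. With no filter on low counts 2 passed at FS FR20vFR8. Without the replicate block (no terms for the animals) 15, 14 and 8 passed in the FS changes and 8 at CPF FR8vB, against 15, 15, 11 and 7, and 5 of the 57 changes lost the call.

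Leaving out 1 animal gave 14 to 16 at FS FR2vB, 14 to 17 at FR8vB, 10 to 12 at FR20vB, 2 to 3 at FR8vFR2, 2 to 8 at FR20vFR8 and 0 to 6 at CPF FR8vB, with 0 throughout for the interactions, CPF against FS and died against lived. The cause of these differences was not tested. Precision is limited by 5 CPF animals, 4 at FR8, by 15 symbols not analysed here, and by the timepoint labels of the 5 FS animals.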

Other observations

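The 3 B libraries with almost no albumin counts (FS animals 17, 19 and 21) were in no comparison. Their subunit levels, as CPM on library totals without TMM for these and the other FS B libraries, differed from the others. Such levels are not adjusted for differences in RNA composition, such as the near absence of albumin. For 15 of 21 subunits all 3 libraries lay above the whole FS B range, for 0 all 3 lay below it, and 6 subunits did neither. The share of all genes that lay so is not given here, so the counts cannot be read as particular to the subunits. The ratio of medians to the other B libraries ran from 0.834 (PSME2, 58.4 CPM against 70.1) to 9.38 (PSMD11, 276 CPM against 29.4). PSMD12 was at 241 against 54.6 CPM, PSME4 at 278 against 83.7 and PSMD5 at 11.4 against 5.45. PSMB7 was at 138 against 145 CPM, inside the range of the others.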
